A study of Gallus gallus with 5 samples.

Results

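Broad peaks of the arginine marks H3R2me2s and H4R3me2a were examined in immature chicken erythrocytes. A broad peak was a peak of 3000 bp or more in either of the lists made from SOLiD libraries, and broad peaks that overlapped by at least 1 bp were merged into regions; the members were thus chosen by peak width in the SOLiD lists. The H3R2me2s list held 3053 broad peaks, 2.96% of its 103231 peaks, and the H4R3me2a list held 3300, 4.23% of its 77936 peaks. The 6353 peaks merged into 3957 broad regions, which lay in 3909 of the 103895 regions obtained by merging every SOLiD peak. They took up 20.2 Mb, or 17.6% of all bases under SOLiD peaks and 1.959% of the spanned genome, which is the sum over chromosomes of the highest peak end in any list.

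H3R2me2s is the symmetric dimethylation of arginine 2 on histone H3, and H4R3me2a is the asymmetric dimethylation of arginine 3 on histone H4. Arginine methyltransferases add methyl groups to these residues, PRMT1 being the main writer of H4R3me2a and PRMT5 a known writer of symmetric forms. Both marks are known from transcribed chromatin, and PRMT1 activity is known to maintain active chromatin at the chicken beta-globin locus in erythroid cells. Chicken erythrocytes keep their nucleus, and much of their chromatin is condensed. The chicken karyotype combines a few large macrochromosomes with many small microchromosomes, which are rich in genes and in GC.

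Chromatin immunoprecipitation with sequencing was done on nuclei of polychromatic erythrocytes in G0, fixed with 0.5% formaldehyde and sheared to 200 bp. A size selection of 100 to 250 bp is given for the SOLiD libraries only. Each mark had 1 SOLiD library (replicate 1) and 1 Illumina library (replicate 2), and the only input library was Illumina; no treatment or genotype was named, and the labels give the breed as Lohmann in one field and Bovan in another. They do not tell whether replicates were separate animals. Depth after filtering ran from 10.3 to 14.2 M tags in the SOLiD libraries and from 27.1 to 35.1 M in the Illumina libraries. SOLiD peaks were called against 1 shared control library, and Illumina peaks without a control. The number of the alignment file in the header differed from that in the label for all 3 Illumina libraries (H3R2me2s 11 in the header and 10 in the label, H4R3me2a 12 and 11, input 10 and 12), so every statement on Illumina cover rests on the labels, and no value of it exists without these libraries. With 1 independent library per mark no test between libraries was possible and none was made. Intervals on shares are 95% Wilson intervals that cover counting error only, and neighbouring regions are not independent.

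Broad regions had a median width of 4218 bp, with quartiles of 3476 and 5852 bp. There were 2240 regions of 4 kb or more, 937 of 6 kb or more, 193 of 10 kb or more and 9 of 20 kb or more, and the widest reached 27198 bp. Both marks contributed a broad peak to 2113 regions (53.4%), whose median width was 5300 bp. The other regions held a broad peak of H3R2me2s alone (800, 20.2%) or of H4R3me2a alone (1044, 26.4%), with median widths of 3583.5 and 3578 bp. A single broad peak made up 1844 regions, 2 peaks made up 1891, and 3 or more made up 222.

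Width chose these peaks, so the values of the SOLiD lists are given as a description. Broad H3R2me2s peaks carried 22.7% of all tags in H3R2me2s peaks, at a median of 97.6 tags per kb against 59.7 in narrower peaks, and broad H4R3me2a peaks carried 30.2%, at 98.4 against 54.6 tags per kb. The authors' fold enrichment had a median of 16.1 in broad and 9.81 in narrower H3R2me2s peaks, and of 25.5 and 13.6 for H4R3me2a. The summit lay in the central 50% of the peak in 55.2% of broad H3R2me2s and 56.6% of broad H4R3me2a peaks, and in 91.9 and 91.8% of narrower ones, so the tallest point of a broad peak was often away from its centre. At the threshold, the H3R2me2s peak chr5:18101112-18104111 was 3000 bp wide with 326 tags, and chr1:51389575-51392573, 1 bp narrower with 352 tags, stayed outside. For H4R3me2a, chr3:3256507-3259506 was 3000 bp wide with 313 tags, and chr2:65903270-65906268, 1 bp narrower with 209 tags, stayed outside.

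Broad regions were concentrated on the microchromosomes (11 and up). These held 2449 broad regions, 61.9% of all (60.4 to 63.4%), whereas 33.9% of the 99986 other SOLiD regions lay there, on 17.1% of the spanned genome. Macrochromosomes 1 to 5 held 769 (19.4%), chromosomes 6 to 10 held 651, Z held 61 and linkage groups held 27; none lay on W or on the mitochondrial chromosome. Density was 13.9 broad regions per Mb on microchromosomes, 4.21 on chromosomes 6 to 10, 1.23 on macrochromosomes and 0.818 on Z. The ratio of microchromosomes to macrochromosomes was 11.3 for broad regions and 2.73 for other SOLiD regions, while the ratio of Z to macrochromosomes was 0.666 and 0.681. Without the regions that carried an input peak, the microchromosome ratio was 13.8.

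Single chromosomes spanned a wide range. Chromosome 26 held 211 broad regions at 41.4 per Mb, and they covered 24.2% of its spanned length. Chromosome 16 had a like density of 41.7 per Mb from 18 regions, followed among numbered chromosomes by 25 at 29.0, 28 at 27.3, 23 at 25.5 and 27 at 24.8 per Mb. Among chromosomes with a spanned length above 1 Mb, the lowest densities were 0.691 per Mb on chromosome 2, 0.818 on Z and 0.915 on chromosome 3.

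**Figure D1:**
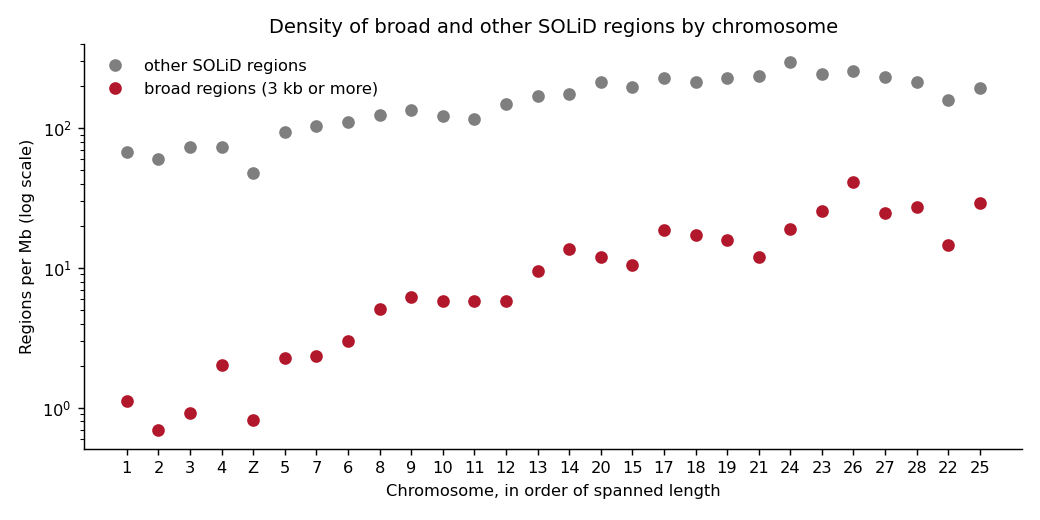
Regions per Mb (log scale) for each chromosome with a spanned length above 1 Mb, in order of that length; red points are broad regions and grey points other SOLiD regions. From chromosome 2 to chromosome 26 the broad regions rise from 0.691 to 41.4 per Mb, while other regions rise from 60.6 to 255.4 per Mb.

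On macrochromosomes the broad regions gathered near the ends. Of 769, 393 (51.1%) lay within 5 Mb of an end, against 16.5% of other SOLiD regions and 7.99% of the spanned length. Chromosome 4 had the highest share, 68.6% against 24.9% of other regions, followed by chromosome 2 at 57.0% against 10.1%, chromosome 5 at 51.8% against 31.0%, chromosome 1 at 44.7% against 8.80% and chromosome 3 at 26.0% against 19.2%. Chromosome 4 gave 131 of the 393. Of its 191 broad regions, 38 lay in chr4:1-1000000 and 50 in chr4:1000001-2000000. Its short arm, a fused microchromosome, was counted with the macrochromosomes here and in the densities above. On chromosomes 6 to 10 the share was 39.9% for broad and 41.7% for other regions, so the excess near the ends was not seen there.

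Counted over the whole genome, broad regions lay in few bins. Of 1048 bins of 1 Mb, 433 held a broad region, and the 60 fullest bins held 50% of all broad regions. For other SOLiD regions 226 bins were needed. The bins were pooled over all chromosomes, so these counts include the contrast between chromosomes and do not measure grouping within chromosomes alone. The 136 bins with 10 or more broad regions held 80.2% of them. The fullest bin was chr18:9000001-10000000 with 61 broad regions, followed by chr26:1000001-2000000 with 56, chr26:1-1000000 and chr14:14000001-15000000 with 52 each, and chr4:1000001-2000000 with 50.

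Joining broad regions up to 10 kb apart gave 852 clusters with 2902 regions, 73.3% of all (71.9 to 74.7%). Other SOLiD regions, of which there were far more, had a neighbour of their own kind within 10 kb in 90.1% of cases, so this share alone does not set broad regions apart. The share in clusters was 78.0% on microchromosomes, 74.7% on chromosomes 6 to 10, 58.9% on macrochromosomes and 49.2% on Z. The largest cluster, chr18:9025895-9173750, held 20 broad regions in 147.9 kb. SOLiD peaks covered 77.4% of it for H3R2me2s and 82.6% for H4R3me2a, Illumina peaks covered 27.4 and 16.7%, and no input peak was called in it. The next were chr4:933031-1071334 with 18 regions, and chr23:5598898-5731700, chr26:1481688-1599725, chr2:194936-312616 and chr26:4939321-5056644 with 15 each.

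The marks covered each other's broad peaks almost end to end in the SOLiD lists. A broad H3R2me2s peak was covered by H4R3me2a peaks over a median of 97.8% of its bases (quartiles 92.0 and 100%), and 2784 of 3053 (91.2%) were covered over 80% or more, against 53% of narrower H3R2me2s peaks. A broad H4R3me2a peak was covered by H3R2me2s peaks over a median of 95.8% (quartiles 90.8 and 98.6%), and 3036 of 3300 (92.0%) were covered over 80% or more, against 68% of narrower H4R3me2a peaks. No peak of the other mark was present at 2 broad H3R2me2s and 11 broad H4R3me2a peaks, whereas 31.6 and 11.1% of narrower peaks had none. A wider peak is more easily touched, so narrower peaks of 1000 bp or more are a closer comparison. Among these, 6.73% of H3R2me2s and 1.63% of H4R3me2a peaks had no peak of the other mark. Cover over 80% or more was reached by 66.9 and 76.9% of them. The 2 and 11 exceptions all carried an input peak, and all carried an Illumina peak of the mark that the SOLiD list lacked; the widest was chrZ:71772580-71791027, 18448 bp of H4R3me2a with no SOLiD H3R2me2s peak. The cover was often made of pieces: 44.7% of broad H3R2me2s and 52.7% of broad H4R3me2a peaks were covered by 2 or more peaks of the other mark. The control library was common to both calls, and its part in the shared cover was not tested.

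The Illumina lists marked nearly every broad region but filled few of them. At least 1 Illumina H3R2me2s peak lay in 3792 broad regions (95.8%, 95.2 to 96.4%), against 65.5% of other SOLiD regions, and at least 1 Illumina H4R3me2a peak in 3583 (90.5%, 89.6 to 91.4%), against 63% of other regions. A wider region is more easily touched, so the percent of bases is given as well. Illumina H3R2me2s peaks covered 34.7% of all bases in broad regions and 47.0% in other SOLiD regions, a ratio of 0.738. Illumina H4R3me2a peaks covered 22.6 and 37.1%, a ratio of 0.608. With only the upper 50% of each Illumina list by fold the ratios were 0.109 and 0.123, and the median broad region had a cover of 0 in both. The median broad region was covered over 35.6% of its bases by H3R2me2s (quartiles 22.0 and 50.5%) and over 20.7% by H4R3me2a (quartiles 10.23 and 35.4%).

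Most broad regions were broken into separate Illumina peaks. There were 2 or more H3R2me2s peaks in 2535 regions (64.1%, 62.6 to 65.5%), against 3.09% of other SOLiD regions, and 2 or more H4R3me2a peaks in 2376 (60.05%, 58.5 to 61.6%), against 4.9%. Other regions had a median width of 759 bp and little room for a second peak, so this contrast follows from the choice by width. In the 709 merged SOLiD stretches of 3 kb or more made only of narrower peaks, 47.1% held 2 or more H3R2me2s and 48.9% 2 or more H4R3me2a peaks, close to the 48.2 and 50.3% of broad regions of 3 to 4 kb. The longest gap between Illumina peaks, or between a peak and the edge of the region, had a median of 1817 bp in the H3R2me2s list, where it reached 3 kb or more in 880 regions (22.2%), and of 2292 bp in the H4R3me2a list, where it did so in 1370 (34.6%). Cover of 50% or more was reached in 1020 regions for H3R2me2s (25.8%, against 53.6% of other regions) and in 430 for H4R3me2a (10.9%, against 39.7%). Cover of 80% or more was reached in 91 (2.30%) and 30 (0.758%) broad regions, against 23.6 and 10.5% of other regions. In the stretches of 3 kb or more these shares were 1.69 and 0.282%. Among other regions only the 709 stretches were wide enough for a gap of 3 kb, and such gaps were not counted there.

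The direction of the difference in cover depended on which regions were set beside the broad ones. Illumina peaks covered 35.4% (H3R2me2s) and 24.9% (H4R3me2a) of the stretches of 3 kb or more, whose median width was 3413 bp. In broad regions of 3 to 4 kb, with a median width of 3403 bp, cover was 41.3 and 28.3%, 1.17 and 1.14 times as much, whereas all broad regions together, at 34.7 and 22.6%, lay below the stretches. In 1 kb windows around the summit of each region's widest SOLiD peak, Illumina H3R2me2s cover was 47.1% in broad and 40.9% in other regions. For H4R3me2a it was 31.6 and 31.8%. Other regions had a median width of 759 bp, so such windows often ran past their edges. The summit itself lay under an Illumina H3R2me2s peak in 56.7% of broad and 58.5% of other regions. For H4R3me2a these shares were 42.0 and 54.4%. Other SOLiD regions under 500 bp were covered over 33.0% by H3R2me2s, less than broad regions, and over 27.2% by H4R3me2a. By chromosome class the ratio to other regions was 0.755, 0.724 and 0.794 for H3R2me2s on macrochromosomes, chromosomes 6 to 10 and microchromosomes, and 0.659, 0.587 and 0.644 for H4R3me2a. On Z it was above 1, at 1.10 and 1.51.

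**Figure D2:**
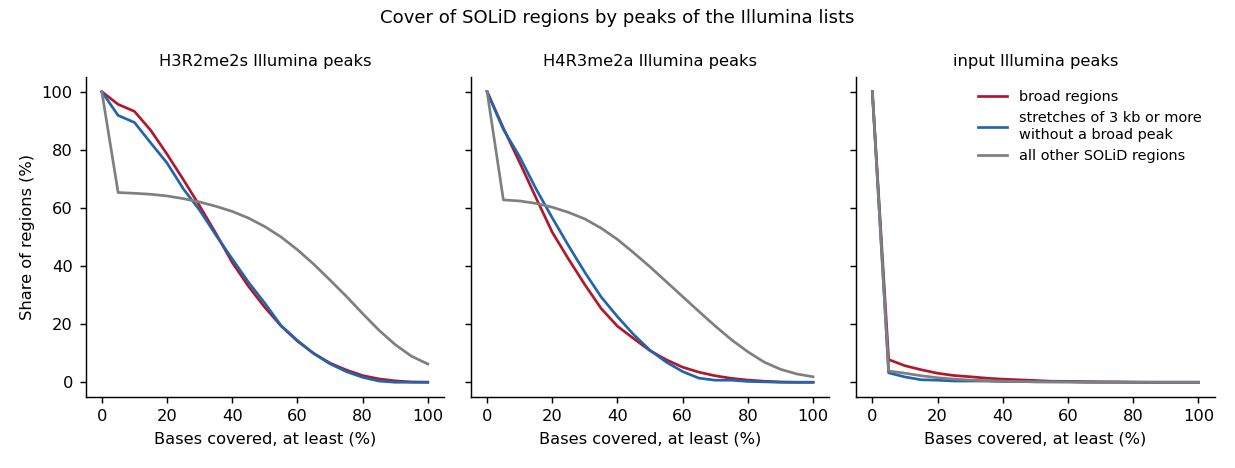
Share of regions (y axis, percent) with at least the given percent of their bases (x axis) covered by peaks of each Illumina list, for broad regions (red), stretches of 3 kb or more without a broad peak (blue) and all other SOLiD regions (grey). The red and blue curves run close together, and cover of 50% or more is reached by 25.8% of broad and 53.6% of other regions for H3R2me2s.

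Cover fell as regions grew wider. In regions of 3 to 4, 4 to 6, 6 to 10 and 10 kb or more, Illumina H3R2me2s peaks covered 41.3, 37.0, 29.7 and 24.8% of the bases, and Illumina H4R3me2a peaks covered 28.3, 24.4, 17.7 and 15.2%. The share broken by 2 or more H3R2me2s peaks went from 48.2% in the narrowest class to 97.9% in the widest. Cover also fell from single regions to large clusters: H3R2me2s peaks covered 43.0% of single regions, 33.4% of clusters of 2 to 4 and 29.9% of clusters of 5 or more, and H4R3me2a peaks 30.4, 21.5 and 17.8%. The share of regions with an input peak moved with it, at 16.8, 11.4 and 6.16%, and its part in the order was not tested. Across the width classes the share with an input peak rose instead, at 10.3, 10.4, 12.1 and 23.3%.

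Along the regions, Illumina cover was even apart from the edges. H3R2me2s cover went from 13.5% in the outermost 5% of the width to 37.9% in the middle, and H4R3me2a cover from 10.8 to 23.5%. SOLiD cover went from 79.1 and 87.5% at the edges to 96.6 and 97.3% in the middle.

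**Figure D3:**
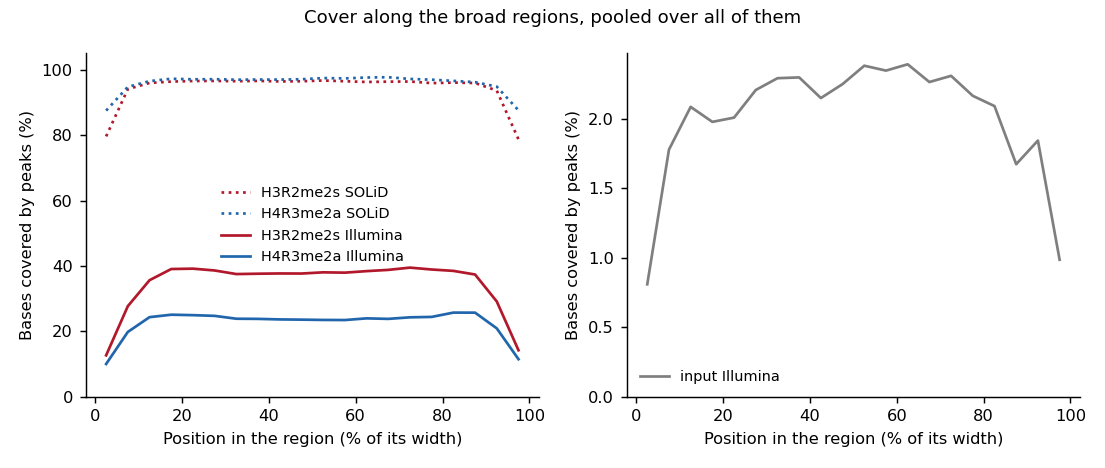
Percent of bases covered by peaks (y axis) in 20 equal parts of each broad region (x axis, position in percent of its width), pooled over the 3957 regions; dotted lines are SOLiD lists, solid lines Illumina lists, and the input has its own panel and scale. Illumina H3R2me2s cover is 13.5% at the edges and 37.9% in the middle, and input cover stays below 2.5% throughout.

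H3R2me2s filled more of a broad region than H4R3me2a did in 3387 of them (85.6%) and less in 478 (12.1%). In other SOLiD regions the shares were 53.7 and 17.1%, and most of the remaining ones had no peak of either Illumina list. The ratio of H4R3me2a to H3R2me2s Illumina cover differed with the mark that was broad in SOLiD: it was 0.583 in regions broad for H3R2me2s alone, 0.728 in those broad for H4R3me2a alone and 0.635 in those broad for both, against 0.789 in other regions. The Illumina lists differed in depth and in modelled fragment length (334 bp against 236 bp), so levels of cover are not comparable between marks.

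The 10 widest regions, from 19.9 to 27.2 kb, fell into those with and those without input peaks. The widest of all, chr1:199122249-199149446, was covered by SOLiD peaks over 95.5% for H3R2me2s and 100% for H4R3me2a, and by Illumina peaks over 39.4 and 35.6%. It held 16 input peaks over 26.5% of its bases. The widest without an input peak, chr13:13095616-13119808, was covered over 97.6 and 99.5% in SOLiD, but over 13.8 and 7.63% in the Illumina lists, by 5 H3R2me2s and 4 H4R3me2a peaks. At chr14:6493119-6514118, 21.0 kb wide, 9 Illumina H3R2me2s peaks covered 22.8% and no Illumina H4R3me2a peak was called, although 1 SOLiD H4R3me2a peak covered all of it. In the 7 widest regions without an input peak, H3R2me2s Illumina cover lay between 10.4 and 22.8%, and in the 3 with input peaks between 28.7 and 39.9%; H4R3me2a cover lay between 0 and 9.59% and between 23.9 and 35.6%. Among these 10 regions the ranges did not overlap for either mark, but over all broad regions they did. From the lower to the upper decile, H3R2me2s cover ran from 11.8 to 61.7% without and from 28.7 to 78.5% with an input peak. For H4R3me2a the deciles were 0 and 46.0% without and 22.3 and 71.8% with an input peak.

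**Figure D4:**
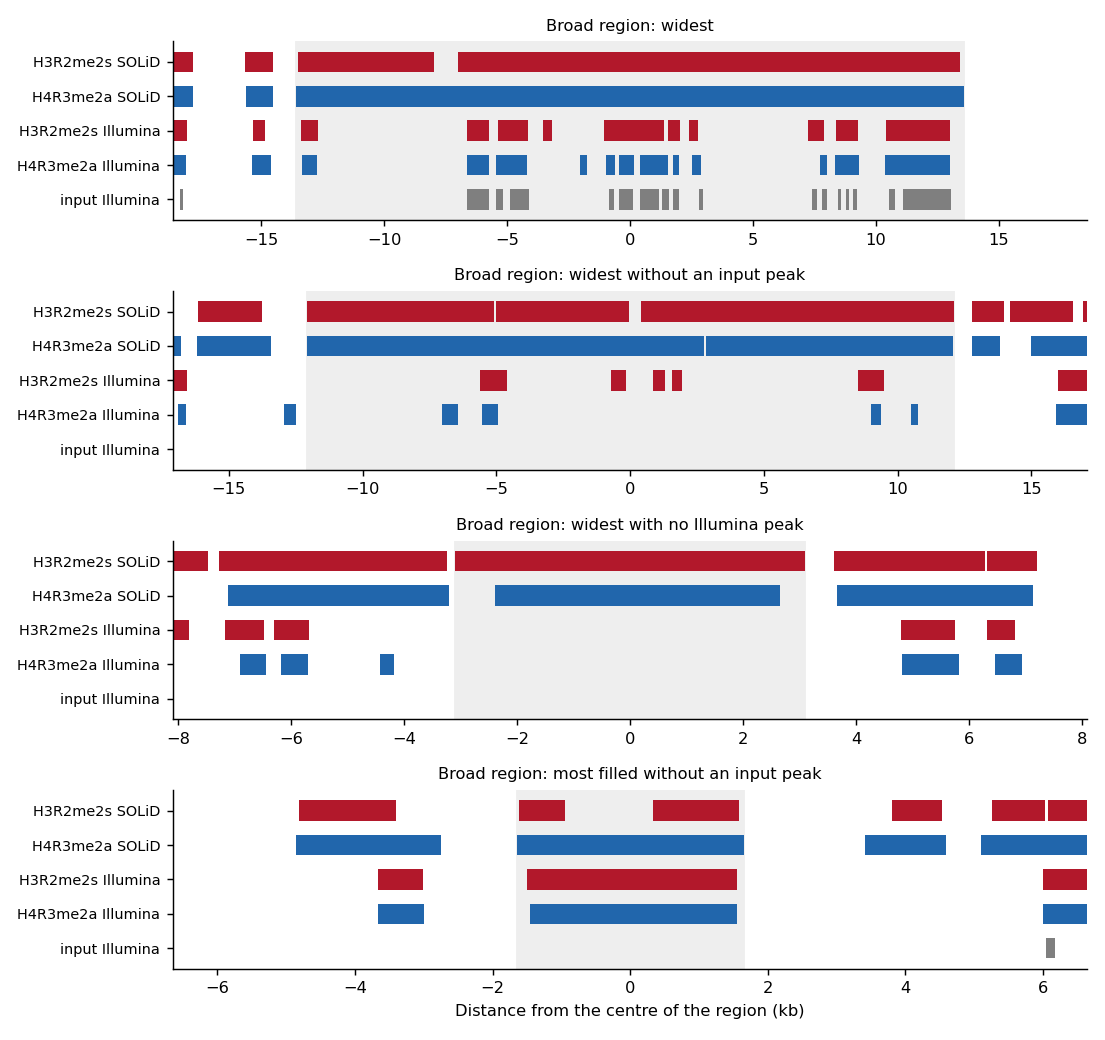
Peaks of the 5 lists (rows) in 4 broad regions and 5 kb on either side; the x axis is the distance from the centre of the region in kb and grey shading is the region itself. SOLiD peaks cover 97.6 and 99.5% of the widest region without an input peak where Illumina peaks cover 13.8 and 7.63%, whereas the most filled region without an input peak is covered over 92.4 and 91.6% by 1 Illumina peak of each mark.

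Regions at the extremes of filling were mostly narrow, though not all. Median width was 3491 bp where neither Illumina list had a peak and 3572 bp where both covered 50% or more. All broad regions had a median of 4218 bp, and a narrower region is more easily left empty or filled. The best-filled region, chr3:98837551-98840730, was covered over 100 and 94.4% by the Illumina lists, with input cover of 78.5%. The best-filled region without an input peak was chr2:275484-278783, 3300 bp wide, with 92.4% for H3R2me2s and 91.6% for H4R3me2a. Both marks reached 50% or more in 409 regions (10.3%, against 36% of other SOLiD regions), of which 165 held an input peak. No Illumina peak of either mark was called in 91 regions (2.30%, against 27.4% of other regions), and 1 of these had an input peak. The widest such region was chr12:10201837-10208028, 6192 bp wide, which SOLiD peaks covered over 100% for H3R2me2s with 620 tags and over 81.3% for H4R3me2a with 352 tags. It lay in a cluster of 9 broad regions, and 83.5% of the 91 regions lay in clusters, against 73.3% of all broad regions.

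Illumina peaks inside broad regions were tall but stood on a high local background. Their summits numbered 7551 for H3R2me2s and 7344 for H4R3me2a. Median pileup, the number of extended tags over the summit, was 130 at H3R2me2s peaks in broad regions and 69 at those in other SOLiD regions, and H4R3me2a peaks had 69 and 39. The authors' fold over local background went the other way: H3R2me2s peaks had 1.81 in broad and 2.89 in other regions, and H4R3me2a peaks had 1.97 and 3.002. Local background, computed as (pileup + 1) / fold - 1, had a median of 70.1 tags of pileup at H3R2me2s peaks in broad regions and 21.0 in other regions, over a genome-wide 11.7, and H4R3me2a peaks had 34.5 and 11.6 over a genome-wide 7.37. It was therefore 3.34 and 2.97 times as high at Illumina peaks in broad regions as at those in other SOLiD regions. Within microchromosomes the ratios were 2.17 and 2.08, within macrochromosomes 4.42 and 3.72, and on Z 15.6 and 17.6. On Z the median in other regions, 11.7 and 7.39, was at the genome-wide level, and 47 of the 61 broad regions held an input peak. Over all chromosomes, the ratios without regions that held an input peak were 3.27 and 2.91. Against stretches of 3 kb or more they were 1.37 and 1.36. Per the headers this background was taken from the ChIP library itself over 10 kb, since no control was given. Whether it set the gaps between Illumina peaks was not tested.

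**Figure D5:**
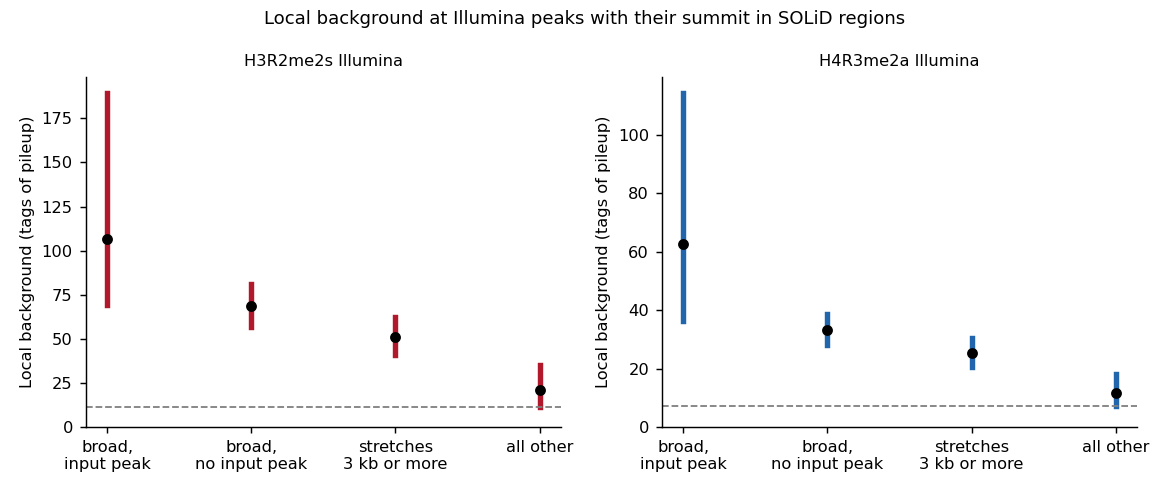
Local background in tags of pileup (y axis) at Illumina peaks whose summit lay in 4 sets of SOLiD regions; points are medians, bars run from the lower to the upper quartile over peaks, and the dashed line is the genome-wide background. For H3R2me2s the medians are 106.5 in broad regions with an input peak, 68.5 in those without, 51.1 in stretches of 3 kb or more and 21.0 in all other regions.

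Few Illumina peaks were themselves broad. The Illumina H3R2me2s list held 163 peaks of 3 kb or more, 97 of them (59.5%, 51.8 to 66.7%) on a broad region, and the H4R3me2a list held 31, 24 of them (77.4%, 60.2 to 88.6%) on one, against 6.45 and 6.70% of all peaks in these lists. All peaks had median widths of 618 and 432 bp, and a wider peak touches a region more easily. An input peak was also present at 83 of the 97 and at 22 of the 24, whereas 11.3% of all broad regions held one.

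Input peaks were found at a minority of broad regions. They lay in 447 of 3957 (11.3%, 10.3 to 12.3%), against 4.1% of other SOLiD regions, and covered 2.02% of the bases against 0.942%. There were 2 or more input peaks in 262 broad regions (6.62%, against 0.537% of other regions). Other regions were far narrower, with a median of 759 bp. In broad regions of 3 to 4 kb, 10.3% held an input peak and 4.37% held 2 or more. In the stretches of 3 kb or more without a broad peak these shares were 5.36 and 1.97%. Most of the input cover came from few regions. The 123 with input cover of 20% or more held 62.5% of all input-covered bases in broad regions. Cover of 50% or more was reached in 24 (0.607%, against 0.177% of other regions). An input peak was present in 23.4% of broad regions on macrochromosomes, 7.99% on chromosomes 6 to 10, 6.74% on microchromosomes and 77.0% (47 of 61) on Z. The highest input cover was 83.7% at chr1:104458001-104462369, followed by 82.1% at chrZ:27952591-27956102 and 79.0% at chr6:12189120-12192981. On Z, 24 of the 61 broad regions lay between positions 71519508 and 71876814, and 23 of them held an input peak.

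The Illumina lists filled regions with an input peak more than those without. H3R2me2s peaks covered 48.6% of the former and 32.7% of the latter, and H4R3me2a peaks 41.5 and 19.8%. This was not particular to broad regions. Other SOLiD regions with and without an input peak were covered over 76.3 and 45.4% by H3R2me2s and over 67.8 and 35.4% by H4R3me2a. The same split was seen in SOLiD tags: broad H3R2me2s peaks had a median of 224 tags per kb in regions with an input peak and 95.4 elsewhere, and broad H4R3me2a peaks 176 and 95.9. Of the 122 broad H3R2me2s peaks with 300 or more tags per kb, 116 lay in regions with an input peak, and of the 124 such H4R3me2a peaks, 121 did. Illumina cover and SOLiD tags per kb of both marks were thus higher in regions with an input peak, the feature by which the regions were split. Tags per kb are not corrected for the control, and fold was not compared over this split. In the 5 regions with the highest input cover, the top SOLiD fold ranged from 2.85 to 15.5 for H3R2me2s. For H4R3me2a it ranged from 3.61 to 22 where a peak was present. The medians over all broad peaks were 16.1 and 25.5. The 2 broad H3R2me2s and 11 broad H4R3me2a peaks with no SOLiD peak of the other mark also lay at input peaks. Of the 3510 regions with no input peak (88.7%), 65.1% lay on microchromosomes, and H4R3me2a covered the broad H3R2me2s peaks in them over a median of 97.6%, against 61.9 and 97.8% for all broad regions.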

How the data were processed

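The 5 deposited peak lists, 1 per library and none pooled, were used; reads were not used here. Members and settings were chosen with earlier results of these data known. Per the file headers, the authors called SOLiD peaks with MACS 1.4.2 (control library of 23.3 M tags, p cutoff 1e-05, background windows of 1 and 10 kb) and Illumina peaks with MACS 2.0.10.20120913 (no control, q cutoff 0.05, window of 10 kb, broad calling off). Per the headers, both kept 1 tag per position and set the effective genome size at 1e+09. Tags after filtering were 14.2 M (H3R2me2s) and 10.3 M (H4R3me2a) for SOLiD, and 35.1, 31.2 and 27.1 M (H3R2me2s, H4R3me2a, input) for Illumina. Neither the aligner nor the build is given in the sources used here; folder names in the SOLiD headers hold the words lifescope and gal3. Coordinates are 1-based as deposited. Gene names and sequences were not used here.

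The deposited values are a tag count per SOLiD peak, a pileup signal at each Illumina summit, fold enrichment as a ratio, a score of the p-value and a false discovery rate in percent for SOLiD, and −log10 of the p-value and q-value for Illumina. These values are the authors' and describe peaks within 1 list. Cover was the percent of a region's bases under peaks of a list, per region or pooled over all bases. Clusters joined regions up to 10 kb apart. Regions were named by rule (the widest, the most and least filled, the highest input cover, the largest clusters, and those nearest the threshold). Interval arithmetic was tested on simulated intervals. Python 3.11.15, numpy 2.4.6 and pandas 2.3.3 were used. Alternatives changed the width minimum, the cluster gap, the libraries, peak thresholds and the comparison set. No test was run, because each mark had 1 library independent of the choice of regions.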

Additional observations from a re-analysis of the deposited data

How the results depend on the processing

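Of 100 alternatives, 17 left a value within its counting interval (for the number of regions, within 1.5 times), 78 moved it further, many of them ratios without an interval that changed at 3 digits, and 5 turned a ratio to the other side of 1; 25 of the alternatives were added after the data had been seen. The cause was not tested for any of them. Within Z the reversed ratios of Illumina cover were 1.10 for H3R2me2s and 1.51 for H4R3me2a. Broad regions of 3 to 4 kb against stretches of 3 kb or more gave reversed ratios of 1.17 and 1.14. All broad regions together had less cover than these stretches (34.7 against 35.4%, and 22.6 against 24.9%). The last reversed ratio was 1.15, for H3R2me2s in 1 kb around the summit of the widest SOLiD peak. For H4R3me2a around the summit the ratio was 0.993.

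A width minimum of 2000 bp gave 8460 regions, 58.8% on microchromosomes, a density ratio of 9.08, 80.5% in clusters, median mutual cover of 96.8% (H3R2me2s) and 95.0% (H4R3me2a), median Illumina cover of 39.8 and 25.8% with ratios of 0.805 and 0.697, and 10.3% with an input peak. A minimum of 4000 bp gave 2177 regions, 59.3% in clusters, mutual cover of 98.1 and 96.4%, and Illumina cover of 32.5 and 18.5% with ratios of 0.691 and 0.557. Without regions holding input peaks, 65.1% lay on microchromosomes at a density ratio of 13.8, Illumina cover was 33.5 and 18.6% with ratios of 0.719 and 0.558, local background ratios were 3.27 and 2.91, and 57.6% of macrochromosome regions lay within 5 Mb of an end. Within 2 and 10 Mb of an end the share was 39.7 and 61.2%. Cluster gaps of up to 5 and 50 kb gave 59.9 and 89.7% in clusters.

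Leaving out the SOLiD list of either mark gave 3053 to 3300 regions, 62.3 to 62.5% on microchromosomes, density ratios of 11.5 to 11.7, 65.7 to 70.6% in clusters, H3R2me2s Illumina cover of 33.6 to 36.8% (ratio 0.729 to 0.776) and H4R3me2a Illumina cover of 17.8 to 22.3% (ratio 0.569 to 0.661).

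Restricting the Illumina lists to −log10 p of 5 or more gave cover of 33.8 and 17.5%, ratios of 0.716 and 0.570, and 57.5 and 47.2% of regions broken. The upper 50% of each Illumina list by fold gave a median cover of 0 for both marks and ratios of 0.109 and 0.123. Peaks in broad regions had lower fold but higher pileup, so this cut does not measure the height of their signal. Joining Illumina peaks up to 200 bp apart left 60.4 and 56.7% broken, and requiring the summit inside left 61.4 and 57.6%. At a threshold of 80% in place of 50%, 2.30 and 0.758% of regions were filled. Against narrower regions with a widest peak of 1000 bp up to the 3 kb minimum the ratios were 0.709 and 0.595. The upper 50% of the SOLiD H3R2me2s list covered broad H4R3me2a peaks over a median of 95.5%. Within macrochromosomes, chromosomes 6 to 10 and microchromosomes, cover ratios were 0.755, 0.724 and 0.794 for H3R2me2s and 0.659, 0.587 and 0.644 for H4R3me2a. Local background ratios were 4.42, 3.08, 2.17 and, on Z, 15.6 for H3R2me2s, and 3.72, 2.81, 2.08 and 17.6 for H4R3me2a; against stretches of 3 kb or more they were 1.37 and 1.36.

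No paired analysis was possible because no result comes from a test between the marks; the replicate number marks the platform. Platform, depth, caller, control, stated size selection, tag length and modelled fragment length differed together between the SOLiD and Illumina lists. Their parts cannot be told apart. Where no input peak was called, the lists give no input level.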

Other observations

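Cover outside the broad regions was lowest next to the edge, where by construction a called peak ends, and stayed above the level of the genome. In the first 1 kb outside, Illumina H3R2me2s and H4R3me2a peaks covered 10.4 and 7.96% of the bases, and from 1 to 3 kb outside they covered 20.9 and 14.4%, against 8.78 and 6.02% of the spanned genome. SOLiD peaks of H3R2me2s covered 42.0% of the first 1 kb and 63.8% from 1 to 3 kb outside, against 9.74% of the spanned genome. Other broad regions made up 10.5% of the first 1 kb and 24.4% of the stretch from 1 to 3 kb, so these values in part measure neighbouring broad regions. The level of the genome is not matched by chromosome. Microchromosomes held 61.9% of broad regions but 17.1% of the spanned genome.

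With 1 tag kept per position, the pileup in an Illumina list cannot pass 2 times the modelled fragment length, which is 668 for H3R2me2s, 472 for H4R3me2a and 198 for the input, and the highest deposited pileup equalled this ceiling in all 3 lists. Peaks within 90% of the ceiling numbered 88, 102 and 88, and 72.7, 71.6 and 67.0% of them had their summit in a broad region. Over all peaks of these lists the shares were 6.26, 6.47 and 13.0%. The peaks near the ceiling fell in 35, 34 and 21 broad regions. All of the 35 and 34 regions of the mark lists held an input peak, against 11.3% of all broad regions. The 21 of the input list did so by definition. Pileup at these places is a lower bound.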
